A study of Mus musculus with 10 samples.

Results

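The genes described here are the ligands, receptors and an endothelial junction protein of the VEGF and angiopoietin axes: Vegfa, Pgf, Flt1, Kdr, Nrp2, Angpt1, Angpt2, Tek, Tie1 and Cdh5. They were taken as every probe set, the group of short probes that reads a transcript on the array, that the platform annotation assigns to exactly 1 of these 10 gene symbols. This gave 10 of the 18193 genes on the array and 20 of the 34945 probe sets that carry a single gene symbol. Flt1 and Nrp2 have 4 each, Vegfa, Angpt1, Angpt2 and Cdh5 have 2 each, and Pgf, Kdr, Tek and Tie1 have 1 each. Expression was measured on Affymetrix 3′ arrays in 10 B16 tumors, B16 being a transplantable melanoma line, on the C57BL/6 background. The wild-type group held 5 tumors and the group labelled Bach2-deficient held 5. Bach2 encodes a transcriptional repressor of lymphocytes. The labels name no further allele, agent, time, age or sex, and do not say which part of the gene was removed or whether the host, the tumor cells or both lacked it.

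VEGF-A is the main growth signal for blood vessels and acts through KDR (VEGFR2), the receptor that drives endothelial growth. FLT1 (VEGFR1) binds VEGF-A and placental growth factor tightly but signals weakly, is also made as a soluble decoy, and is carried by monocytes and macrophages as well as endothelium. NRP2 is a co-receptor for VEGFs and class 3 semaphorins. ANGPT1, made largely by cells around vessels, activates the endothelial receptor TIE2 (encoded by Tek) and stabilises vessels, while ANGPT2, released by endothelium, can oppose it. TIE1 modulates TIE2, and VE-cadherin (Cdh5) joins endothelial cells to each other. In tumors, low oxygen is a known inducer of VEGF-A.

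Flt1 and Nrp2 were the members with probe sets that rose, and Kdr is the sister receptor of Flt1. The 250 bases before the RefSeq start of each of these 3 genes (build GRCm38.p6) are shown for that reason, with the ETS core GGAA, read on both strands as GGAA or TTCC, in capitals. ETS factors are the textbook activators of endothelial and myeloid promoters. The windows lie at chr5:147726012-147726261, minus strand (Flt1), chr5:75978456-75978705, minus strand (Kdr) and chr1:62703067-62703316, plus strand (Nrp2), and each is written 5′ to 3′ toward its gene.
Flt1: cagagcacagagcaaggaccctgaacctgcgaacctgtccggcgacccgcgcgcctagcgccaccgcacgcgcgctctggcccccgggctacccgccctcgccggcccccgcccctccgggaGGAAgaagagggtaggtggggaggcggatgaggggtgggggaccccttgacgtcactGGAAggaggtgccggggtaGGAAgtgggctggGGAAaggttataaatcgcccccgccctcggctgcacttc
Kdr: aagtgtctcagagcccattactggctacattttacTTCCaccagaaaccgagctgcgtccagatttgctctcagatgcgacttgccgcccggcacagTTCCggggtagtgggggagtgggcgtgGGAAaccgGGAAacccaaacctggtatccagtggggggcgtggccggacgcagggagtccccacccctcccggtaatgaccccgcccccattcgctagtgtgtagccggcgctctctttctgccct
Nrp2: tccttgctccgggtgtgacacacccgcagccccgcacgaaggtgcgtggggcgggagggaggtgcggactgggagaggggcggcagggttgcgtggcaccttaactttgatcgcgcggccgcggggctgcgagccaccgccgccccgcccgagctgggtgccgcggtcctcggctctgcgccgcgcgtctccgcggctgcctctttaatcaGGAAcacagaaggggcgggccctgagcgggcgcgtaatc
The Flt1 and Kdr windows each held 4 matches, a number reached by 33.4% of the 32851 RefSeq promoter windows of the same length. Nrp2 held 1 match, and 93.4% of all windows hold at least 1. The hypoxia response core ACGTG, or CACGT on the other strand, was in none of these 3 windows and in 16.6% of all windows. Of the 10 genes, 7 had a RefSeq promoter sequence. Tie1 held 7 GGAA matches and Tek 2. Vegfa held 6 at one start and 2 at the other, which also held the 1 ACGTG match, and Pgf held 0 at both of its starts. These are matches of letters and carry no test.

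All arrays had a median log2 value from 5.80 to 5.88. The melanocyte marker list (10 genes) showed the labelled tissue on every array. Its mean log2 level was 12.62 to 12.80 on wild-type and 12.13 to 12.84 on Bach2-deficient arrays. Of the latter, 4 lay below the lowest wild-type array, while replicate 1 was the highest of all. Of the 10 genes, 3 fell and 0 rose, where 12.4% of all genes fell and 16.3% rose. The brightest Bach2 probe set, which stands for the gene, was 1445460_at; it changed by -1.07 (SE 0.38, limma adjusted p = 0.0695 over all probe sets), and 1436515_at passed (-1.05, adjusted p = 0.0382), while 1437667_a_at did not (-0.35, adjusted p = 0.381). The poly-A spike controls, added to the RNA before labelling, had a mean of 10.3 to 10.6 on wild-type arrays and 8.59 to 8.80 on Bach2-deficient arrays. Xist, the RNA of the inactive X chromosome, was at 11.4 to 12.2 on wild-type arrays, at 11.9 on Bach2-deficient replicate 2 and at 4.76 to 6.61 on the other Bach2-deficient arrays. The spike level thus split the groups fully, and the Xist state did so apart from Bach2-deficient replicate 2. What differs with these readings cannot be told apart from the genotype in any change given below. Bach2-deficient replicate 1 stood apart from its group for several of the genes below. Over all 45037 probe sets that are not controls, 20.8% passed the test (limma, adjusted p under 0.05), 11.9% as higher and 8.87% as lower in the Bach2-deficient tumors. Of the 20 member probe sets, 5 rose and 1 fell: the 4 of Flt1, 1 of Nrp2 and 1 of Cdh5. These 6 calls stand beside that background, and 4 of them come from 1 gene. In whole tumors, a change in the number of cells that carry a transcript and a change in its amount per cell cannot be told apart. The groups did not overlap for 2 of the 20, against 15.3% of all probe sets. The number of arrays limits the precision of every value.

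**Figure D1:**
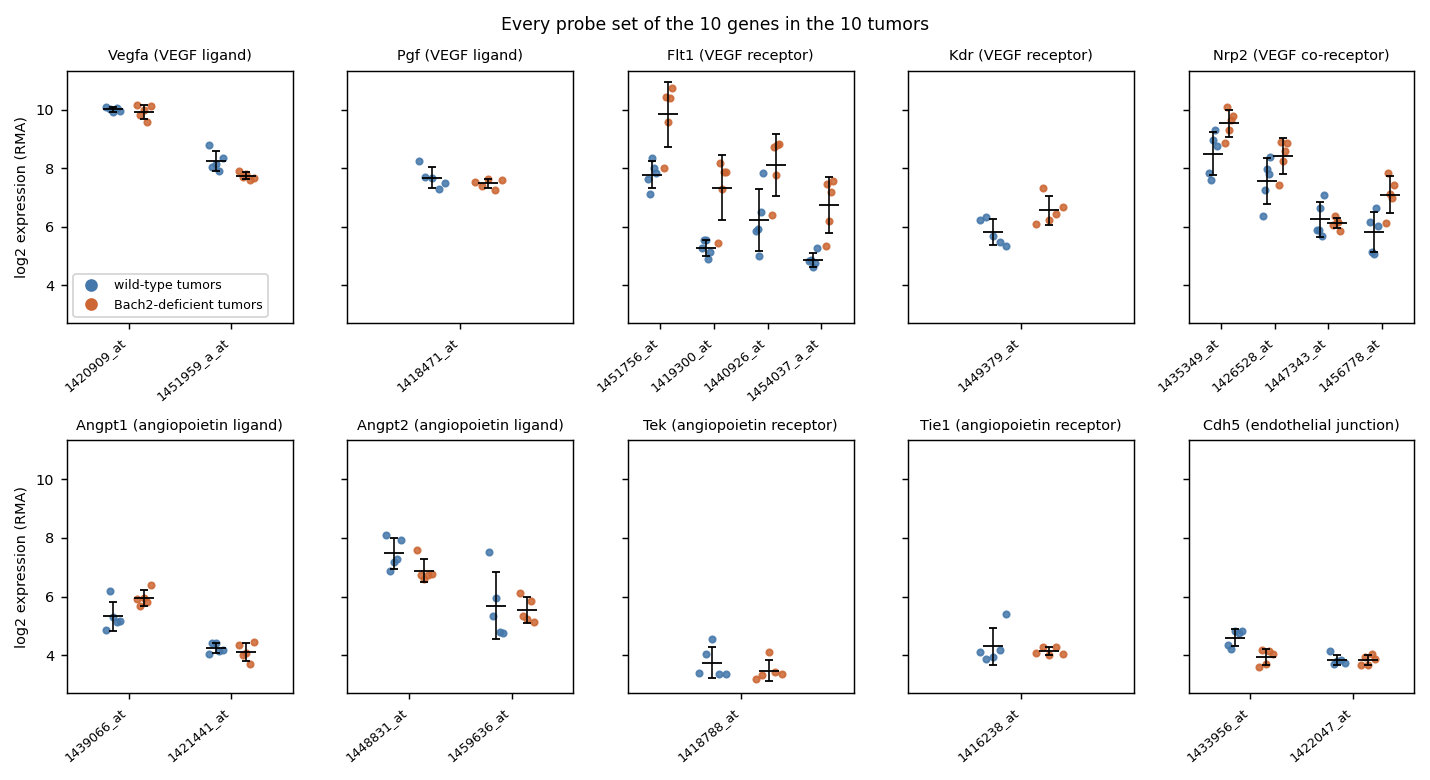
Level (log2 RMA) of each of the 20 probe sets, 1 panel per gene; points are tumors (blue wild type, orange Bach2-deficient, 5 each), the black marks mean ± SD. The 4 Flt1 probe sets have Bach2-deficient means from 6.75 to 9.83 against wild-type means from 4.87 to 7.78, with Bach2-deficient replicate 1 low in each.

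The mRNA of the main ligand was not shown to differ in its brightest reading. Vegfa probe set 1420909_at read 10.07, 10.03, 9.91, 10.06 and 9.93 in wild-type replicates 1 to 5 and 10.14, 9.82, 9.98, 9.57 and 10.11 in Bach2-deficient replicates 1 to 5. The groups overlapped on both sides, and the change of -0.08 had a 95% interval from -0.35 to 0.19 (limma adjusted p = 0.662). The second Vegfa probe set, 1451959_a_at, whose suffix marks a set shared by several transcripts of 1 gene, read 8.78, 8.03, 8.14, 7.90 and 8.34 in wild type and 7.91, 7.71, 7.79, 7.59 and 7.68 in Bach2-deficient tumors. Here 4 of the 5 Bach2-deficient tumors lay under the lowest wild-type tumor. The change of -0.50 (SE 0.16, interval -0.86 to -0.15) missed the threshold (limma adjusted p = 0.0501). It passed when wild-type replicate 4 (-0.59, limma adjusted p = 0.0267) or Bach2-deficient replicate 1 (-0.55, 0.0478) was left out. It also passed with median centring (limma adjusted p = 0.0477), repeated quantile normalization (0.0240), a filter that drops dim probe sets (0.0436), weights that count noisier arrays less (array weights, 0.0179) and the replicate number as a term (the replicate block, 0.0387). Adjusted for the mean of the melanocyte markers, the change was -0.39 and did not pass (limma adjusted p = 0.354). With the Xist state (high or low) in the fit it was -0.53 and did not pass (0.341). The 2 Vegfa probe sets gave changes of different size. In deviations from the group means, Vegfa 1420909_at correlated with the melanocyte mean at r = 0.86 (10 arrays, no p). Its r with the means of other marker lists was -0.53 (T cell), -0.42 (macrophage), -0.28 (endothelial identity) and -0.25 (pericyte).

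Pgf, which encodes placental growth factor, a ligand of FLT1 and not of KDR, did not pass either. Its only probe set read 8.25, 7.68, 7.66, 7.28 and 7.48 in wild type and 7.53, 7.40, 7.63, 7.24 and 7.60 in Bach2-deficient tumors. Wild-type replicate 1 was the highest tumor and the other values overlapped. The change was -0.19 with an interval from -0.58 to 0.19 (limma adjusted p = 0.446).

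Flt1 was the member with the largest change, and all 4 of its probe sets rose, by 1.88 to 2.06 on the log2 scale. The brightest, 1451756_at, read 7.61, 7.13, 8.33, 7.99 and 7.82 in wild-type replicates 1 to 5 and 8.02, 10.43, 9.57, 10.41 and 10.74 in Bach2-deficient replicates 1 to 5. Replicates 2 to 5 were each above all wild-type tumors, while replicate 1 lay inside the wild-type range. The means were 7.78 ± 0.45 and 9.83 ± 1.10 (SD, n = 5 each), a 4.16-fold rise (log2 change 2.06, SE 0.48, limma adjusted p = 0.0135). Probe set 1419300_at gave the same picture at lower brightness, with 5.27, 5.53, 5.53, 4.91 and 5.15 in wild type and 5.43, 8.18, 7.30, 7.88 and 7.88 in Bach2-deficient tumors (change 2.06, SE 0.46, limma adjusted p = 0.0110). Replicate 1 was again within the wild-type range and the other 4 were above it.

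Probe set 1454037_a_at was the one Flt1 probe set whose groups did not overlap. It read 4.82, 4.86, 4.63, 4.76 and 5.26 in wild type and 5.35, 7.46, 6.19, 7.17 and 7.57 in Bach2-deficient tumors, a change of 1.88 (SE 0.39, limma adjusted p = 0.00845). Replicate 1 cleared the highest wild-type tumor by a small margin. Probe set 1440926_at was the most variable in wild type, with 5.84, 5.92, 4.99, 6.50 and 7.84 there and 6.40, 8.70, 7.77, 8.80 and 8.83 in Bach2-deficient tumors. Wild-type replicate 5 reached the level of Bach2-deficient replicate 3, and the change of 1.88 (SE 0.59) passed narrowly (limma adjusted p = 0.0470). With 1 array left out this probe set passed only without wild-type replicate 5 or Bach2-deficient replicate 1, and its limma adjusted p ran up to 0.112. It was also lost with median centring (1.87, limma adjusted p = 0.0510) and repeated quantile normalization (1.83, 0.0565). The other 3 Flt1 probe sets passed in each of the 10 such fits.

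Without Bach2-deficient replicate 1 the Flt1 changes were 2.51 (1451756_at), 2.53 (1419300_at), 2.31 (1440926_at) and 2.23 (1454037_a_at), with limma adjusted p-values from 9.38e-05 to 0.0108. The probe sets of Flt1 also varied together inside the groups: the Pearson correlation of deviations from the group means ran from 0.57 to 0.87 over the 6 pairs (10 arrays; the pairs share the same RNA, and Bach2-deficient replicate 1 is low in all). No probe set was assigned to the full-length or the soluble form, since the files do not place the probes.

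**Figure D2:**
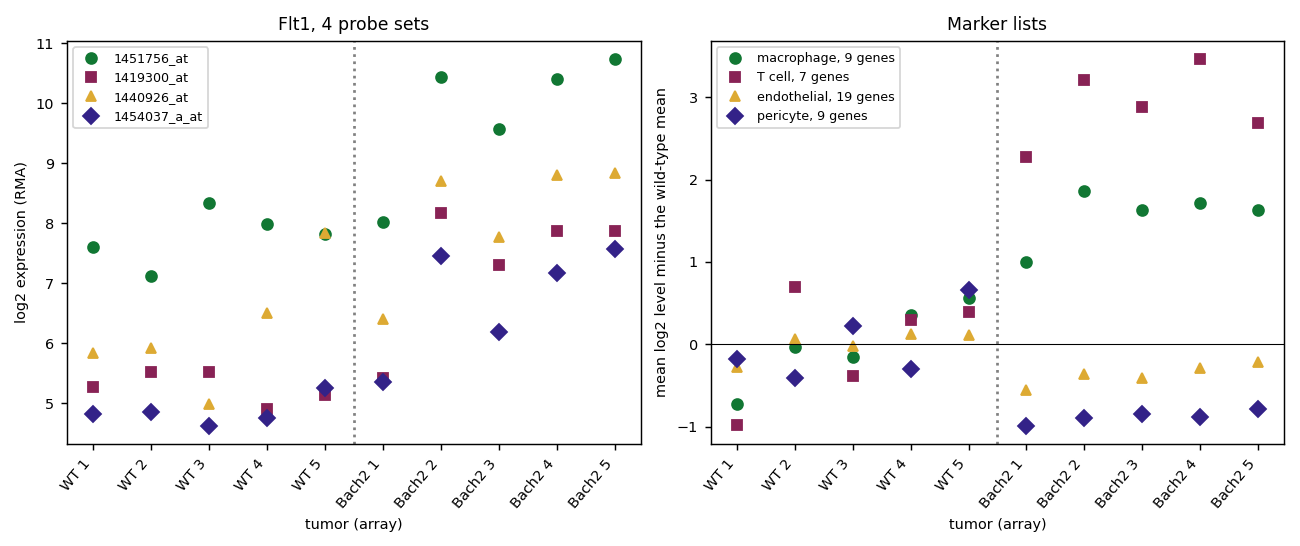
Left, log2 level of the 4 Flt1 probe sets in each tumor (WT, wild type; Bach2, Bach2-deficient; numbers are replicates). Right, mean log2 level of 4 marker lists in the same tumors after subtracting the wild-type mean: macrophage and T cell means lie higher and pericyte means lower in all 5 Bach2-deficient tumors, with no overlap, and Bach2-deficient replicate 1 has the lowest macrophage and T cell means of its group.

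Macrophage and T cell markers were also higher in the Bach2-deficient tumors, where 16.3% of all genes rose. Of 9 measured macrophage genes, which include Adgre1, Csf1r and Cd68, 8 rose and 0 fell, and the mean log2 level of the list was 8.83 to 10.1 in wild-type and 10.6 to 11.4 in Bach2-deficient tumors. All 7 measured T cell genes rose, and that list ran from 6.91 to 8.59 and from 10.2 to 11.4. Bach2-deficient replicate 1 had the lowest mean of its group on both lists (10.6 and 10.2). In deviations from group means (10 arrays, no p), Flt1 correlated with the endothelial identity mean at r = 0.55, the macrophage mean at 0.53, the pericyte mean at 0.31, the T cell mean at 0.26 and the melanocyte mean at -0.75. The endothelial identity list includes Pecam1 and Fli1, which blood cells also express, so its mean is not purely endothelial. The part of these cell types in the Flt1 result was not tested. Adjusted for the mean of the melanocyte markers, the Flt1 changes were 0.97 to 1.17 and no Flt1 probe set passed (limma adjusted p = 0.145 to 0.425). With the Xist state (high or low) in the fit they were 2.48 to 2.90 and did not pass (0.0627 to 0.213). That term leaves Bach2-deficient replicate 2 as the one tumor of its group with the wild-type Xist state.

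Kdr, the main signalling receptor of VEGF-A, had a single probe set, which read 6.24, 6.34, 5.67, 5.48 and 5.34 in wild type and 6.08, 7.32, 6.23, 6.44 and 6.69 in Bach2-deficient tumors. Of the latter, 3 lay above the highest wild-type tumor. The change of 0.74 (SE 0.27, interval 0.13 to 1.34) did not pass (limma adjusted p = 0.0797 at probe-set level). With 1 probe set per gene and adjustment over the 18193 genes it did not pass either (0.0637), but it did without wild-type replicate 2 (0.87, 0.0430) or Bach2-deficient replicate 1 (0.86, 0.0408), with array weights (0.85, 0.0452), with the replicate block (0.74, 0.0485) and with the Xist term (1.50, 0.0460), all limma adjusted p-values. The Kdr change shrank to 0.44 with the melanocyte covariate (limma adjusted p = 0.462) and to 0.55 without Bach2-deficient replicate 2 (0.134).

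Nrp2 was read by 4 probe sets, of which 3 pointed up and 1 passed. Probe set 1456778_at read 6.15, 5.14, 5.08, 6.65 and 6.02 in wild type and 6.11, 7.84, 7.12, 6.97 and 7.42 in Bach2-deficient tumors, a change of 1.29 (SE 0.38, limma adjusted p = 0.0357). As for Flt1, Bach2-deficient replicate 1 stayed within the wild-type range and replicates 2 to 5 lay above it. This call held in 4 of the 10 fits with 1 array left out and was lost without wild-type replicate 2 or 3 or Bach2-deficient replicate 2, 3, 4 or 5 (changes 1.10 to 1.32, limma adjusted p = 0.0677 to 0.0892). It was also lost with the replicate block (1.29, limma adjusted p = 0.0780), the Xist term (2.04, 0.0987) and the melanocyte covariate (0.95, 0.327).

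The brightest Nrp2 probe set, 1435349_at, read 7.84, 7.61, 8.96, 9.30 and 8.76 in wild type and 8.86, 10.07, 9.31, 9.63 and 9.78 in Bach2-deficient tumors. Here too 4 of 5 Bach2-deficient tumors were above the wild-type maximum, replicate 3 by the smallest margin. Its change of 1.04 (SE 0.35) did not pass among the probe sets (limma adjusted p = 0.0598) and passed among the 18193 genes (0.0467), where it stands for Nrp2. The gene-level call held without wild-type replicate 3 (1.15) or 4 (1.24) or Bach2-deficient replicate 1 (1.20) and was lost in the other 7 such fits (changes 0.82 to 1.10, limma adjusted p up to 0.113). It was also lost with median centring (1.03, limma adjusted p = 0.0524), repeated quantile normalization (0.87, 0.0820), the replicate block (1.04, 0.0521), the Xist term (1.58, 0.129) and the melanocyte covariate (0.65, 0.403). Probe set 1426528_at changed by 0.87 (limma adjusted p = 0.145) and passed with array weights (1.12, 0.0404) and the replicate block (0.87, 0.0344), and the dimmer 1447343_at changed by -0.13 (0.745). The related co-receptor gene Nrp1 changed by 0.15 in its brightest probe set (interval -0.26 to 0.56, limma adjusted p = 0.557) and passed with the mean of the endothelial identity list as a covariate (0.85, 0.00742). Over all alternatives run, the changes of Nrp2 1426528_at ran from 0.34 to 1.36 and those of the Nrp1 gene from -0.11 to 0.85. Of the 4 Nrp1 probe sets, all with positive changes, 1418084_at rose (0.61, SE 0.14, limma adjusted p = 0.0112 over all probe sets). In deviations from group means (10 arrays, no p), Nrp2 correlated with the macrophage mean at r = 0.68 and the endothelial identity mean at 0.59. Its r was 0.38 with the pericyte mean, 0.27 with the T cell mean and -0.41 with the melanocyte mean. Cdh5, from a level near the dim bound, also correlated with the macrophage mean at 0.68. Its r was 0.59 with the endothelial identity mean, 0.54 with the pericyte mean, 0.33 with the T cell mean and -0.57 with the melanocyte mean.

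**Figure D3:**
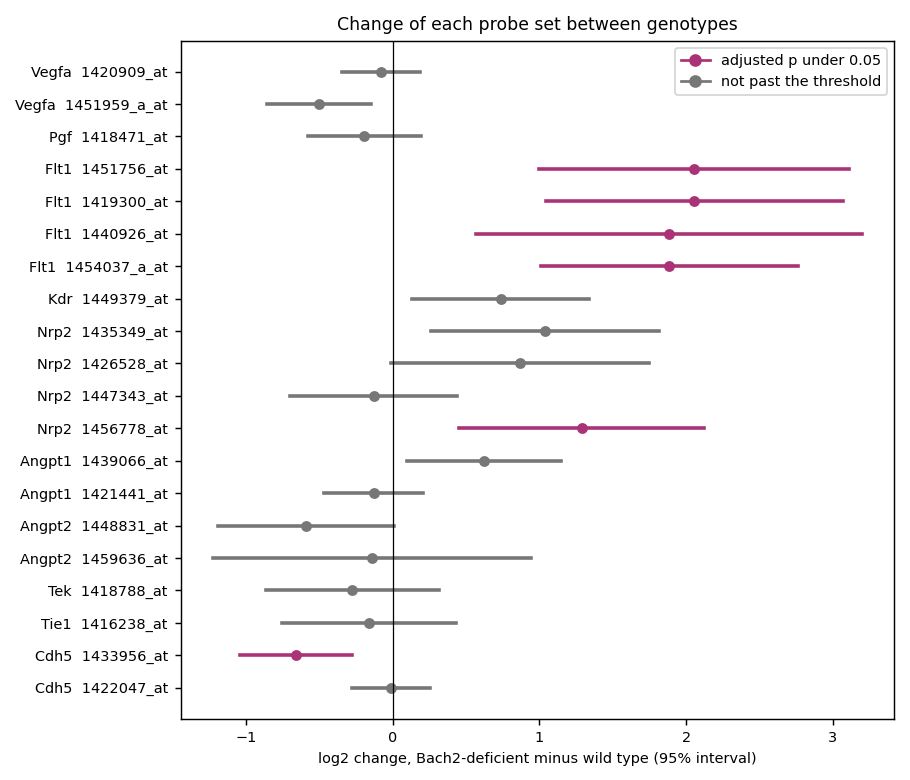
Log2 change (Bach2-deficient minus wild type, point) of each probe set with its 95% interval (line); purple marks an adjusted p under 0.05 over all probe sets. The 4 Flt1 intervals lie above 0, from 0.57 at the lowest bound to 3.20 at the highest, and the one called fall is Cdh5 1433956_at at -0.66.

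The brightest probe sets of the 2 angiopoietins had changes of opposite sign, and neither passed. Angpt1 probe set 1439066_at read 4.87, 6.18, 5.30, 5.14 and 5.16 in wild type and 5.93, 5.67, 5.95, 5.80 and 6.40 in Bach2-deficient tumors. Only wild-type replicate 2 reached the Bach2-deficient range. The change was 0.62 (SE 0.24, limma adjusted p = 0.0874), and without that tumor it was 0.83 and passed (limma adjusted p = 0.00865). At gene level it shrank to 0.34 with the Xist term (limma adjusted p = 0.635) and to 0.25 with the mean of both probe sets (0.311). The dim second probe set, 1421441_at, changed by -0.13 (interval -0.47 to 0.21).

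Angpt2 probe set 1448831_at read 8.11, 6.87, 7.18, 7.29 and 7.94 in wild type and 7.59, 6.74, 6.59, 6.72 and 6.78 in Bach2-deficient tumors. Replicates 2 to 5 were below the lowest wild-type tumor, while replicate 1 was in the middle of the wild-type range. The change of -0.59 (SE 0.27, interval -1.19 to 0.01) did not pass (limma adjusted p = 0.143). At gene level it passed without Bach2-deficient replicate 1 (-0.77, limma adjusted p = 0.0374), with repeated quantile normalization (-0.76, 0.0498), array weights (-0.71, 0.0310), the replicate block (-0.59, 0.0331), and the endothelial list mean as a covariate (-1.26, 0.0464). The change shrank to -0.20 with the melanocyte covariate (limma adjusted p = 0.722) and to -0.44 without wild-type replicate 1 (0.243). Probe set 1459636_at ranged from 4.77 to 7.53 in wild type alone and changed by -0.14 (limma adjusted p = 0.856).

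The angiopoietin receptors were dim, and neither was shown to differ. Tek, encoding TIE2, read 3.39, 4.05, 4.54, 3.37 and 3.35 in wild type and 3.17, 3.31, 4.09, 3.41 and 3.34 in Bach2-deficient tumors (change -0.27, interval -0.86 to 0.31, limma adjusted p = 0.480). Tie1 read 4.10, 3.87, 3.92, 4.16 and 5.42 against 4.07, 4.26, 4.01, 4.28 and 4.04 (change -0.16, interval -0.75 to 0.43, limma adjusted p = 0.688). Wild-type replicate 5 was the one high Tie1 tumor. In both groups their means were below 4.55, under which the dimmest 30% of probe sets lie. As no detection calls were used, such a level is not shown to be above background, and the size of a change is not exact.

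Cdh5, the endothelial cadherin gene, was the one member that fell. Probe set 1433956_at read 4.35, 4.22, 4.81, 4.77 and 4.82 in wild type and 3.59, 4.18, 3.70, 4.14 and 4.05 in Bach2-deficient tumors. Every Bach2-deficient tumor was below every wild-type tumor, with replicate 2 closest. The change was -0.66 (SE 0.17, limma adjusted p = 0.0221), from a level near the dim bound, so its size is not exact and the filter on dim probe sets leaves it out. At probe-set level the call was lost without Bach2-deficient replicate 3 (-0.60, limma adjusted p = 0.0528) and with the Xist term (-0.41, 0.472). The other probe set, 1422047_at, lay between 3.66 and 4.14 on all arrays and changed by -0.01 (interval -0.27 to 0.25), and the mean of both did not pass at gene level (-0.34, limma adjusted p = 0.0610). Counted as 1 probe set per gene over the 18193 genes, 2 of the 10 members rose (Flt1, Nrp2) and 1 fell (Cdh5), where 28.7% of all genes were called, 16.3% higher and 12.4% lower. The median change of the 10 was -0.12, beside -0.06 over all genes. Of the 20 probe sets, 15 were above the dim bound, and 4 of the 5 below it were those of Tek, Tie1 and Cdh5.

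Several other endothelial genes had lower group means in the Bach2-deficient tumors, where the Flt1 mean was higher. Tumor by tumor this did not hold, as Bach2-deficient replicate 1 was the lowest of its group in both the endothelial list mean and Flt1. Of 19 measured endothelial identity genes outside the members, 8 fell and 2 rose (median change -0.47), where 12.4% of all genes fell and 16.3% rose. Falls numbered 8 to 10 with 1 array left out and 2 to 11 over all alternatives run, and rises 2 and 1 to 2. Among the fallen genes, Cldn5, Esam, Mmrn2 and Myct1 were dim in the Bach2-deficient group, so the sizes of their falls are not exact. Robo4, Sox7, Sox17, Sox18, Rasip1 and Clec14a, none of them called, were dim in both groups. Egfl7, which encodes a protein secreted by endothelium, fell by 1.18 (7.28 ± 0.28 to 6.11 ± 0.31, SD, n = 5 each; limma adjusted p = 0.00131), and Plvap, a component of endothelial fenestrae, fell by 1.11 (6.17 ± 0.23 to 5.05 ± 0.35; 0.00152). The 2 that rose were Pecam1 (2.00, SE 0.36, limma adjusted p = 0.00277), which encodes CD31 and is also carried by leukocytes and platelets, and Fli1 (1.48, SE 0.31; 0.00600), an ETS factor of endothelium and blood cells. The mean log2 level of the list was 5.26 to 5.67 in wild-type and 4.99 to 5.33 in Bach2-deficient tumors. This mean includes Pecam1 and Fli1 and so is not purely endothelial. With it as a covariate, Flt1 changed by 3.20 (limma adjusted p = 0.0117), Nrp2 by 1.92 (0.0241), Kdr by 0.60 (0.403), Pgf by -0.71 (0.0453) and Cdh5 by -0.25 (0.513). Pericyte and smooth muscle genes moved with the endothelial ones: 5 of 9 fell (Acta2, Rgs5, Mcam, Pdgfrb and Cspg4) and 0 rose, with list means of 6.34 to 7.40 and 5.76 to 5.97. Of 4 measured lymphatic endothelial genes, 1 fell (Lyve1) and 0 rose. Of 4 measured red cell genes 3 fell (Alas2, Slc4a1 and Epb42; list means 7.18 to 9.54 and 4.17 to 5.79), and of 8 fibroblast genes 2 fell (Col1a1 and Col1a2). The part of these cell types in the changes of the members was not tested.

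Of the 12 other genes of the 2 axes, each read by its brightest probe set, 6 fell and 0 rose, with a median change of -0.48. Over all genes, 12.4% fell and 16.3% rose. Ptprb, the endothelial phosphatase VE-PTP that restrains TIE2 and KDR, read 6.85 ± 0.50 in wild type and 5.02 ± 0.24 in Bach2-deficient tumors (SD, n = 5 each; change -1.82, SE 0.23, limma adjusted p = 0.000511), with no overlap. It passed in all 20 alternative fits run on genes. Plxnd1, a semaphorin receptor of endothelium, fell by 0.81 (SE 0.17, limma adjusted p = 0.00608). The class 3 semaphorin genes Sema3c and Sema3a, whose proteins bind neuropilins, fell by 1.35 (SE 0.24, limma adjusted p = 0.00253) and 0.98 (SE 0.19, 0.00420), while Sema3f, encoding an NRP2 ligand, changed by -0.31 (limma adjusted p = 0.105; 0.0145 and -0.42 without wild-type replicate 4). A dimmer Sema3f probe set, 1425840_a_at, fell by 0.40 (limma adjusted p = 0.0431 over all probe sets), and 1438947_x_at changed by 0.25 (0.380).

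Among the other VEGF genes, Vegfc, the lymphatic growth factor, changed from 8.67 ± 0.18 to 7.90 ± 0.51 and fell by 0.77 (limma adjusted p = 0.0273). Its call was lost without wild-type replicate 1, 3 or 4 or Bach2-deficient replicate 2, 4 or 5 (changes -0.78 to -0.65, limma adjusted p up to 0.0687). Vegfb, encoding a ligand of FLT1, fell by 0.64 (limma adjusted p = 0.0498), and this call held in 2 of the 10 fits with 1 array left out, those without wild-type replicate 2 and Bach2-deficient replicate 1. Vegfd (0.20), Flt4, encoding VEGFR3 (-0.06), Angptl4 (-0.01) and Angpt4 (-0.05) did not pass. With the melanocyte covariate or the Xist term 1 gene of the 12, Ptprb, still passed as lower.

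**Figure D4:**
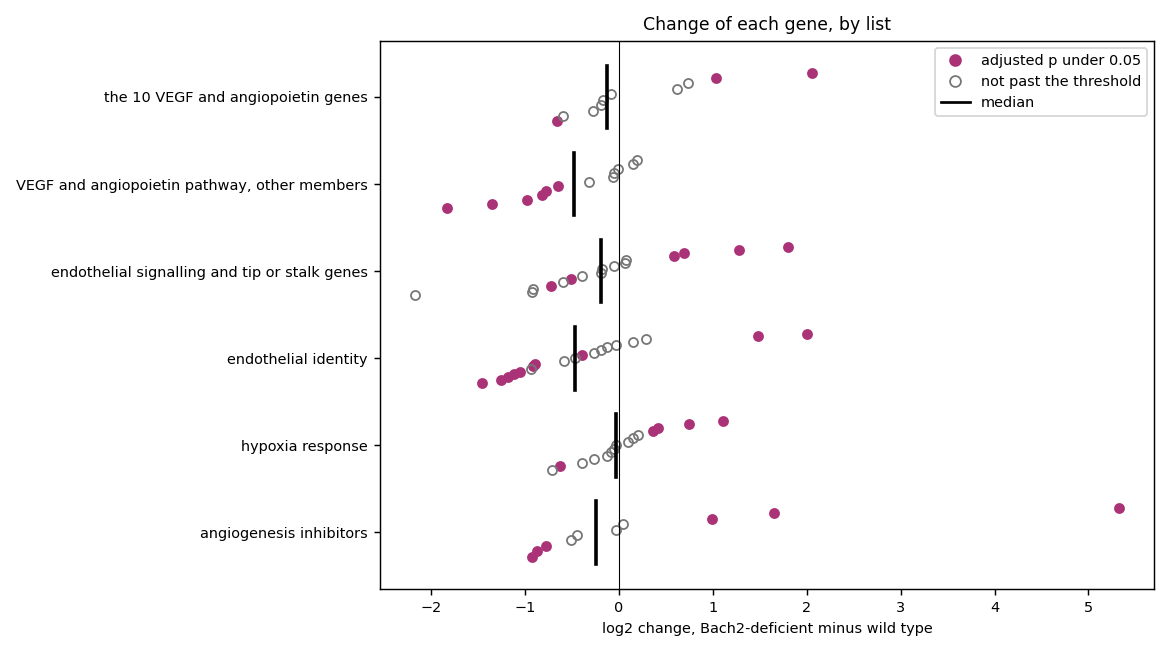
Log2 change (Bach2-deficient minus wild type) of each gene, 1 point per gene by its brightest probe set, for the 10 members and the 5 pathway lists; filled points passed over all genes and black bars are medians. In the list of other VEGF and angiopoietin genes, 6 of 12 fell and 0 rose.

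Genes of endothelial signalling, many of them VEGF or Notch responsive, moved both ways: of 16, 4 rose and 2 fell (median -0.19). Over all genes, 16.3% rose and 12.4% fell, so these counts are near the background. The falls were Unc5b, a guidance receptor of tip cells (-0.72, limma adjusted p = 0.00916), and Apln, the apelin peptide gene (-0.51, 0.0252). The rises were Nrarp (1.80, 0.0304), Acvrl1 (0.69, 0.0373), Cxcr4 (0.59, 0.0109) and S1pr1 (1.28, 0.0231), the last 2 also expressed by lymphocytes. The 2 probe sets of Acvrl1, a BMP receptor gene of endothelium, were called in opposite directions: 1451604_a_at, which stands for the gene, changed by 0.69 and 1435825_at by -0.73 (limma adjusted p = 0.0490 and 0.0449 over all probe sets), so Acvrl1 has no settled direction. The counts of rises were 1 or 2 without wild-type replicate 1 or 3 or Bach2-deficient replicate 2, 3, 4 or 5. Apln lost its call without wild-type replicate 3 (-0.49) or Bach2-deficient replicate 2 (-0.46) or 5 (-0.50), and S1pr1 without wild-type replicate 1 or 3 or Bach2-deficient replicate 2, 4 or 5 (changes 1.06 to 1.25, limma adjusted p up to 0.0613).

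Hypoxia-responsive genes, to which Vegfa belongs, showed no common direction. Of 15, 4 rose and 1 fell, and the list means of the groups overlapped (11.6 to 11.9 in wild type, 11.7 to 11.9 in Bach2-deficient). Beside this, 28.7% of all genes were called, 16.3% higher and 12.4% lower. Egln3, a prolyl hydroxylase of the oxygen-sensing pathway, rose by 1.12 (limma adjusted p = 0.00808) and Ndrg1 by 0.75 (0.0118), the other rises being Slc2a1 and P4ha1 (0.36 and 0.42), while Car9, a carbonic anhydrase, fell by 0.62 (0.0436). With 1 array left out, the fall of Car9 held in 2 of 10 fits, those without wild-type replicate 2 or Bach2-deficient replicate 1 (limma adjusted p up to 0.0995 in the others). Rises numbered 2 without wild-type replicate 1 or 3 or Bach2-deficient replicate 2, 3 or 4. Of 10 measured genes for angiogenesis inhibitors, 3 rose and 3 fell. The angiostatic chemokine genes Cxcl9 (5.33, SE 0.52, limma adjusted p = 0.000205) and Cxcl10 (1.65, 0.000229) rose, and both are interferon-γ targets. Col18a1, the collagen from which endostatin is cleaved, fell by 0.78 (0.00212) and Adamts1, a metalloproteinase gene, by 0.93 (0.00509). Col18a1 was dim in the Bach2-deficient group (mean 4.73), so the size of its fall is not exact. Thbs1, encoding thrombospondin, rose by 1.00 (0.0404) and Serpinf1, encoding PEDF, fell by 0.87 (0.0161).

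Members were set against each other in 7 pairs. Each pair held a ligand and a receptor, except for Angpt2 minus Angpt1 (2 ligands) and Kdr minus Cdh5 (a receptor and a junction gene). Each was read within each tumor, as the difference of 2 log2 values on 1 array. This asks whether 2 genes changed by unequal amounts; the levels of different probe sets are not comparable. Tek in both groups and Cdh5 in the Bach2-deficient group lay in the dim range, not shown to be above background, so the sizes and p-values of the pairs with Tek or Cdh5 are not exact. Vegfa minus Flt1 was 2.46, 2.91, 1.58, 2.07 and 2.11 in wild type and 2.12, -0.61, 0.40, -0.84 and -0.63 in Bach2-deficient tumors. Bach2-deficient replicate 1 was again the one within the wild-type range (change -2.13, exact permutation p = 0.0317). The change was -2.25 for Pgf minus Flt1 (exact p = 0.0238), -0.82 for Vegfa minus Kdr (exact p = 0.0397), 0.90 for Angpt1 minus Tek (exact p = 0.0159), and -1.21 for Angpt2 minus Angpt1 (exact p = 0.0476). Kdr minus Cdh5 was 0.52 to 2.13 in wild type and 2.31 to 3.13 in Bach2-deficient tumors, the one pair whose groups did not overlap (change 1.40, exact p = 0.00794, the smallest this test allows). Angpt2 minus Tek changed by -0.32 (exact p = 0.571). After Benjamini-Hochberg adjustment over the 7 pairs, 0 passed in this exact permutation test (2-sided), with 6 at an unadjusted p under 0.05 and an adjusted p of 0.0556 for each of them. Without wild-type replicate 2 or Bach2-deficient replicate 1, 6 pairs passed.

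The genes most alike in pattern within the groups were ranked by the Pearson correlation of deviations from the group means over the 10 arrays. The ranking is a description across all genes with no p, and it leaves out the change between the genotypes. For Flt1 the closest genes were Rara (r = 0.97), a retinoic acid receptor gene, Asb2 (0.96) and Prkar2a (0.95). Without the 2 arrays farthest from the median of Flt1, wild-type replicate 2 and Bach2-deficient replicate 1, these were 0.95, 0.90 and 0.72. Between the genotypes Rara changed by 0.57 (limma adjusted p = 0.0144), Asb2 by 0.36 (0.0986) and Prkar2a by -0.34 (0.0414), the last opposite to Flt1. For Kdr the closest genes were Clrn3 (0.97), R3hcc1l (0.93) and A530088E08Rik (0.92), whose changes of 0.24, 0.32 and 0.32 did not pass. Clrn3 (means 2.98 in wild type and 3.22 in Bach2-deficient tumors) and A530088E08Rik (4.23 and 4.54) lay in the dim range. Their levels are not shown to be above background. For Vegfa the closest genes were Hapln1 (0.96), Chsy3 (0.95) and Myo5a (0.94), the last a melanosome motor gene. They changed by -2.01, -0.91 and -0.53 (limma adjusted p = 0.0192, 0.0266 and 0.00863), while the brightest Vegfa probe set was not shown to differ. For Angpt2 the closest were Rbfox2 (0.98), Aimp2 (0.97) and Dera (0.96), with changes of -0.68, -0.45 and -0.19 (limma adjusted p = 0.0336, 0.0451 and 0.259). None of these 12 genes is on the endothelial, pericyte or hypoxia lists. Those lists hold a very small part of all genes ranked, so this absence was likely beforehand. It therefore says nothing about the cells that carry these transcripts, which was not tested.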

How the data were processed

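RNA of 10 B16 tumors was read on 1-colour arrays. Per the labels' protocols, tumors were mechanically dissociated and total RNA was extracted with Trizol. The authors deposited log2 expression values, made with RMA and Partek per the submitters' processing notes (versions and genome build not given in the sources used here), and the values were used as deposited. Groups and replicate numbers came from the titles. The labels do not tie the tumors to separate mice. The p-values therefore reflect only the scatter among these 10 samples, part of which may be technical.

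limma 3.58.1 (R 4.3.3; lmFit and eBayes, 2-sided) compared the genotypes, the only term in the model, over 45037 probe sets and again over 18193 genes, each represented by its single-gene probe set with the highest mean over all arrays. Adjusted p-values are Benjamini-Hochberg values, called under 0.05. In the gene fit, dim means under 4.98. The fit and the exact permutation test were checked on simulated data. The members, gene lists and alternatives were chosen with earlier results of these data known, the Xist term and the melanocyte covariate among them. Named genes were all members, all genes of the first pathway list and, per other pathway list, the 2 called genes with the smallest adjusted p in each direction; Nrarp, Acvrl1, Slc2a1, P4ha1, Thbs1, Serpinf1 the other probe sets of Nrp1, Sema3f and Acvrl1, and the fallen genes of the cell type lists were named after their values were seen. List genes without a single-gene probe set of their own are not analysed here. Lists are described by counts and medians, without a set test. Names and promoters came from RefSeq tables (GRCm38.p6).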

Additional observations from a re-analysis of the deposited data

Results flagged for a closer look

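Values of each of the 20 probe sets were searched for a tumor far from the other 4 of its group by Dixon's test, in 40 groups of values, of which 3 were singled out; chance gives about 1 in 20. Angpt2 probe set 1448831_at was at 7.59 in Bach2-deficient replicate 1, where the next tumor of the group was at 6.78. Tie1 was at 5.42 in wild-type replicate 5, with the next at 4.16. Tek was at 4.09 in Bach2-deficient replicate 3, with the next at 3.41. The Tie1 and Tek values lie in the dim range. Flt1 in Bach2-deficient replicate 1 was the lowest of its group for all 4 probe sets but was not singled out by this test, since the remaining tumors differed among themselves too.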

How the results depend on the processing

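Among the members, the pairs and the 27 list genes refitted under the alternatives, no called result changed direction; the other list genes were refitted only for the counts. The rises of Flt1 probe sets 1451756_at, 1419300_at and 1454037_a_at held under all alternatives run other than the Xist term and the melanocyte covariate. Member probe sets called higher (5) numbered 0 with the Xist term, 0 with the melanocyte covariate, 7 with array weights, and 3 to 6 with 1 array left out. Those called lower (1) numbered 2 with median centring or repeated quantile normalization, 3 with array weights or the replicate block, 0 with the Xist term, and 0 to 2 with 1 array left out. Member genes called higher (2) numbered 1 with median centring, repeated quantile normalization or the Xist term, 3 with array weights, 0 with the melanocyte covariate, and 1 to 3 with 1 array left out. Those called lower (1) numbered 2 with repeated quantile normalization, array weights, the replicate block or the endothelial covariate, 0 with the dim filter (which leaves out Cdh5), the Xist term or the mean of probe sets, and 1 to 2 with 1 array left out. Pathway list genes called higher (13) and lower (20) numbered 3 and 3 with the Xist term, 3 and 5 with the melanocyte covariate, and 7 to 13 and 16 to 22 with 1 array left out. Pairs past the threshold (0) numbered 4 with the mean of probe sets and 0 to 6 with 1 array left out. The replicate block, run as a paired sign-flip test for the pairs, called 0, since its smallest possible p is 0.0625; in the limma fits the block gave 5 probe sets higher and 3 lower. The main fits did not pair the tumors by number, as the titles do not say that the numbers mark pairs. Deviations from the group means correlated at 0.236, 0.004, 0.244, 0.0956 and 0.0777 between same-numbered tumors. Between tumors with different numbers they correlated at -0.197 to 0.164, so the highest values were those of same-numbered tumors. Whether the numbers mark a shared step was not tested. Where no other reason is given, the cause of these differences was not tested. Signal near background limits Tek, Tie1 and Cdh5 among the members, and list genes with a dim group mean, such as Unc5b, Apln, S1pr1 and Col18a1.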
